A study of Mus musculus with 18 samples.

Results

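The genes described here are 37 named genes of glycolysis and the hypoxia response, chosen by symbol as enzymes, transporters and flux regulators of glycolysis and as components or targets of the hypoxia-inducible factor HIF. They were matched by symbol in a table of 54532 genes, in which they hold 38 gene identifiers because Aldoa is listed under 2 (ENSMUSG00000030695 and ENSMUSG00000114515). A filter on low counts kept 37 of the 38 identifiers among the 14684 genes tested. The identifier left out was Adm, the peptide hormone adrenomedullin, whose means lay between 0.0582 and 0.246 CPM in the 6 groups (CPM, reads of a gene scaled to equal library totals). The genes fall into a glycolysis class of 21 identifiers (enzymes, glucose and lactate transport, regulators of flux) and a HIF class of 17 (HIF itself, its hydroxylases and other targets).

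The study measured polyadenylated RNA in cultured macrophages derived from the tibial marrow of mice 2 to 3 months old. Every mouse carried loxP-flanked Smad1 alleles (Smad1 fl/fl), alone in the groups called floxed-labelled here and together with LyzM-Cre (MyS1KO), a Cre recombinase driven by the lysozyme M gene of myeloid cells, in the groups called knockout-labelled. All cells were grown in serum with WEHI-3 conditioned medium and the growth factor CSF-1, starved of serum for about 16 h, and then left untreated or given TGF-β1 at 10 ng/ml or BMP4 at 50 ng/ml for 4 h. The 6 groups held 3 libraries each, numbered 1 to 3, with 15153296 to 24639163 counts per library. Nothing in the labels ties the 3 libraries to separate mice or dishes, so p-values measure the spread between these libraries, which may be partly technical.

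Macrophage markers summed to 10100 to 11700 CPM in every library, neutrophil markers to 62.7 to 164 CPM, and the markers of 6 other cell types to at most 14.9 CPM. Lyz2, the gene that hosts the Cre, went against the genotype labels: it was 13400 to 17800 CPM in the 9 knockout-labelled libraries, 8120 to 9870 CPM in the 6 floxed-labelled libraries numbered 2 and 3, and 37.6 to 74.3 CPM in the 3 floxed-labelled libraries numbered 1. Smad1, the targeted gene, was 19.5 to 26.8 CPM in the knockout-labelled and 22.2 to 31.1 CPM in the floxed-labelled libraries. Which part of Smad1 the loxP sites flank is not stated in the labels, so reads over the whole gene do not check the deletion, and each difference between genotypes below is one between labels. The floxed-labelled libraries numbered 1 were therefore also left out in a fit of the other 15 libraries, whose values are given beside the main groups of results below.

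Glycolysis converts glucose to pyruvate in the cytosol, and lactate dehydrogenase turns pyruvate into lactate when it does not enter the mitochondria. HIF is a heterodimer whose alpha subunit is hydroxylated by oxygen-dependent prolyl hydroxylases (the Egln proteins), recognised by the von Hippel-Lindau protein and degraded; when hydroxylation falls, HIF binds the core letters ACGTG or GCGTG and raises transcription of glycolytic genes, glucose transporters and the hydroxylases themselves. In macrophages, HIF-1 and glycolysis are known to rise under inflammatory stimulation as well as in low oxygen.

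The promoter windows of 5 members are shown because the genes share the HIF core letters while their RNA behaved differently with TGF-β1: Hk2, P4ha1 and Slc2a1 were higher with it, and Pgk1 and Gapdh, textbook glycolytic HIF targets, were not called. Each is the 250 bases before the gene's start in RefSeq (build GRCm38.p6), 5′ to 3′ on the gene's strand, with ACGTG or GCGTG and their reverse complements CACGT and CACGC in capitals. The windows lie at chr6:82774455-82774704 (Hk2, minus strand), chr10:59323046-59323295 (P4ha1, plus strand), chr4:119108495-119108744 (Slc2a1, plus strand), chrX:106186850-106187099 (Pgk1, plus strand) and chr6:125165774-125166023 (Gapdh, minus strand).
Hk2: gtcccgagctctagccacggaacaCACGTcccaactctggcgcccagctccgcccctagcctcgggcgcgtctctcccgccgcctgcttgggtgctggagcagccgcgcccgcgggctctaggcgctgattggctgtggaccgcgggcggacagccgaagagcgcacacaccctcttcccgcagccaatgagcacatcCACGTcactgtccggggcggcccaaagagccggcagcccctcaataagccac
P4ha1: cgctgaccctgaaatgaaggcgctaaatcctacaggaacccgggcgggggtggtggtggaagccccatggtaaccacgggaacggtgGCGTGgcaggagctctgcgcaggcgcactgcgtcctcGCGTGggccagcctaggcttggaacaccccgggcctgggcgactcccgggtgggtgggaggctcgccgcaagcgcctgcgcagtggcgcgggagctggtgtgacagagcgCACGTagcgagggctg
Slc2a1: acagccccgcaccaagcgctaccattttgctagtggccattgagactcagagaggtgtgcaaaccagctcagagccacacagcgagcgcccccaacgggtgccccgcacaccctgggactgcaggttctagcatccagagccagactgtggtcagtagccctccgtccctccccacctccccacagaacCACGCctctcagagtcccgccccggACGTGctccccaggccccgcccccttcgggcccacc
Pgk1: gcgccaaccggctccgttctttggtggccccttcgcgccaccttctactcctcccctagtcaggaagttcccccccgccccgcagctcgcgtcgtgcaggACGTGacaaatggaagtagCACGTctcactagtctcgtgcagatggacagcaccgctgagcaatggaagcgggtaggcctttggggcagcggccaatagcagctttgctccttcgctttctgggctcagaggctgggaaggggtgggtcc
Gapdh: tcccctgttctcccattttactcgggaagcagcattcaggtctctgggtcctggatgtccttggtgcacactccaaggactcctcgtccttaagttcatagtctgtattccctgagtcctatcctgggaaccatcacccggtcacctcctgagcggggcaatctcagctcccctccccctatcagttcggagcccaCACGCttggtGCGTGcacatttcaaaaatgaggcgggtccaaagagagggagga

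The Hk2, Slc2a1, Pgk1 and Gapdh windows each held 2 matches and the P4ha1 window held 3. RefSeq promoters were matched for 34 of the 37 named genes, which have 54 annotated starts. Of these windows 44 (81.5%) held at least 1 match to ACGTG or GCGTG on either strand, against 38.6% of all 32851 promoter windows of the same length and 54.3% of those of genes tested here. By gene, 32 of 34 members (94.1%) held a match at 1 or more starts, all but Gpi1 and Tpi1, against 60.0% of genes tested and 41.5% of all genes with a promoter entry. The letters were present in 18 of the 19 members that rose with TGF-β1 in both genotypes and in 9 of 10 matched members that were called in neither. The search overlaps the E-box CACGTG, which other factors bind and which 11.1% of the members' windows, 8.32% of the windows of genes tested and 6.02% of all windows held. CAGAC, a letter string bound by Smad proteins, was in 37% of the members' windows, 40.7% of the windows of genes tested and 42.2% of all windows on either strand. By gene it was in 50.0% of members, 45.7% of genes tested and 45.8% of all genes with a promoter entry. A match is a description of letters and not a measured binding site.

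Levels per gene length (FPKM, the count scaled by gene length and library total) were highest for enzymes of glycolysis and lowest for some HIF targets in untreated floxed-labelled cells. The order was led by Pkm, the pyruvate kinase, at 423 ± 43.5 FPKM (SD, n = 3), Aldoa, the aldolase, at 422 ± 19.4 FPKM, Gapdh at 271 ± 11.4 FPKM and Pgk1, phosphoglycerate kinase, at 209 ± 6.06 FPKM. Pkm and Aldoa did not differ beyond their spread, and neither did Ldha (115 ± 4.37 FPKM) and Eno1 (108 ± 8.62 FPKM), or Eno1 and Tpi1 (103 ± 1.21 FPKM). Hk2 (9.64 ± 0.955 FPKM), Slc2a1 (10.0 ± 0.936 FPKM), Ndrg1 (10.6 ± 0.849 FPKM) and Hif1a (12.3 ± 0.902 FPKM) stood near the middle of the order. At the low end were Egln3 (0.460 ± 0.154 FPKM), Ak4, an adenylate kinase of mitochondria (0.438 ± 0.151 FPKM), and Plod2, a lysyl hydroxylase (0.0993 ± 0.0275 FPKM).

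With TGF-β1, 20 of the 37 identifiers tested rose and 3 fell in floxed-labelled cells, and 20 rose and 5 fell in knockout-labelled cells (edgeR quasi-likelihood test with Benjamini-Hochberg adjustment over all genes, called at an adjusted p under 0.05). Hk2 rose 3.90-fold and 4.49-fold, Hif1a 1.87-fold and 1.84-fold and Slc2a1 1.78-fold and 1.68-fold, while Ndrg1, one of the usual hypoxia markers, fell 3.67-fold and 4.15-fold. Over all genes tested, 33.0% were called in floxed-labelled cells (17% higher, 16.0% lower) and 34.6% in knockout-labelled cells (17.6% higher, 17.1% lower). The median log2 change of the members was 0.25 and 0.27 in the 2 genotypes, against 0.00 over all genes in both. The same 19 identifiers rose in both genotypes, Pfkm, Pdk1 and Ndrg1 fell in both, 4 were called in 1 genotype only, 11 in neither, and 0 moved in opposite directions. Without the floxed-labelled libraries numbered 1, which leaves 15 libraries, 16 members rose and 3 fell in floxed-labelled cells (26.1% of all genes called): Pfkp, Tpi1, Kdm3a and the second Aldoa identifier were no longer called. In that fit Hk2 rose 3.64-fold, Hif1a 1.93-fold and Slc2a1 1.71-fold in floxed-labelled cells and Ndrg1 fell 3.62-fold, and 0 of the 23 called members changed direction. The largest shift among them was that of the scarce Egln3, from log2 1.53 to 1.98. Library numbers paired the libraries within a genotype, and with library number as a block within genotype 22 members rose and 6 fell in floxed-labelled cells (39.5% of all genes called), and 20 rose and 6 fell in knockout-labelled cells (40.3% of all genes called). In bulk RNA, fewer cells of a type and less RNA per cell cannot be told apart.

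Of the 16 identifiers of glycolytic enzymes, 9 rose and 1 fell in floxed-labelled cells and 8 rose and 2 fell in knockout-labelled cells. In each genotype 62.5% were thus called, against 33.0% and 34.6% of all genes. A call also depends on the number of counts of a gene, and such shares, here and below, were not matched for level. Among the enzyme genes called in both genotypes, the largest changes were the rises of Hk2, Pfkl, Eno1 and Pgam1. Hk2 (ENSMUSG00000000628, chromosome 6, 82725025 to 82774454, build mm10) encodes the inducible hexokinase, which phosphorylates glucose in the first step. It was 51.9, 63.2 and 58.5 CPM in untreated floxed-labelled libraries 1 to 3 and 232, 235 and 210 CPM with TGF-β1. In knockout-labelled cells it went from 57.6, 49.7 and 55.1 CPM to 256, 249 and 225 CPM. Every TGF-β1 library was thus above every untreated one. The rise was 3.90-fold in floxed-labelled cells (log2 1.96, SE 0.08, edgeR adjusted p = 6.81e-13) and 4.49-fold in knockout-labelled cells (log2 2.17, SE 0.09, edgeR adjusted p = 2.2e-13). Hk1, the constitutive hexokinase, was not called in either (log2 0.06 and −0.08).

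Counted per length, the makeup of hexokinase RNA differed with TGF-β1. Hk3, the hexokinase most abundant in these cells, held 83.8% ± 1.09 of the summed FPKM of Hk1, Hk2 and Hk3 in untreated floxed-labelled cells and 63.8% ± 1.54 with TGF-β1. Over the same groups the Hk2 share went from 7.58% ± 0.784 to 27.8% ± 1.39, with no overlap between libraries (6.72% to 8.26% against 26.8% to 29.4%, and 7.76% to 8.26% against 26.8% to 29.4% without library 1). Summed hexokinase was 127 ± 1.53 FPKM untreated and 135 ± 6.27 FPKM with TGF-β1. The knockout-labelled shares of Hk2 were 7.14% ± 1.09 and 29.7% ± 2.27, and with BMP4 the shares were 7.62% ± 0.971 and 7.78% ± 1.09 in floxed-labelled and knockout-labelled cells.

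Phosphofructokinase, the enzyme of the committed step, is made of subunits from 3 genes that did not move together. Pfkl (ENSMUSG00000020277, chromosome 10, 77986947 to 78010083), the liver-type subunit, was 68.4, 79.4 and 76.0 CPM untreated and 122, 135 and 117 CPM with TGF-β1 in floxed-labelled libraries. The knockout-labelled values were 69.9, 65.5 and 70.4 CPM against 113, 118 and 115 CPM. These groups did not overlap, and the changes were 1.67-fold (log2 0.74, SE 0.07, edgeR adjusted p = 4.92e-08) and 1.68-fold (log2 0.75, SE 0.07, edgeR adjusted p = 5.49e-08). Pfkp, the platelet-type subunit, rose by log2 0.24 and 0.23, and Pfkm, the muscle-type subunit, fell by 0.30 and 0.36 on the log2 scale. The share of Pfkl in the summed FPKM of the 3 genes went from 42.5% ± 2.32 to 56.1% ± 2.16 in floxed-labelled cells and from 41.0% ± 1.86 to 55.5% ± 0.148 in knockout-labelled cells, and that of Pfkm from 33.9% ± 2.34 to 21.8% ± 0.990 and from 34.6% ± 1.96 to 21.6% ± 1.83. Without floxed-labelled library 1 the Pfkl share was 43.4% to 44.3% untreated and 55.2% to 58.6% with TGF-β1. Such shares depend on the annotated gene lengths, which were 6675 bases for Pfkl, 13401 for Pfkp and 3340 for Pfkm. Unscaled by length, the untreated floxed-labelled means were 74.6 CPM for Pfkl, 82.9 CPM for Pfkp and 29.8 CPM for Pfkm. Summed phosphofructokinase was 26.1 ± 0.597 FPKM untreated and 33.0 ± 1.43 FPKM with TGF-β1 in floxed-labelled cells, and 24.9 ± 0.250 and 31.0 ± 0.724 FPKM in knockout-labelled cells. Pfkp and Pfkm overlap the genes Pitrm1 and Senp1 on the other strand, whose mean counts were 61.1% and 105% of theirs, and the strand setting of the counting is not given in the sources used here, so these 2 subunits are uncertain.

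**Figure D1:**
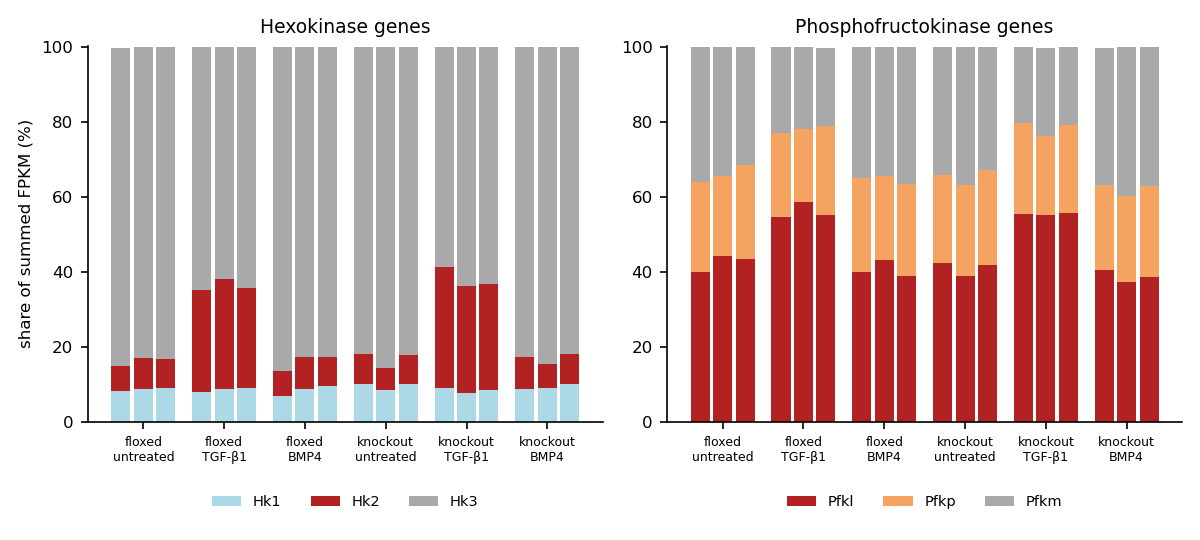
Share of each gene in the summed FPKM (vertical axis, percent) of the 3 hexokinase genes (left) and the 3 phosphofructokinase genes (right), 1 bar per library, grouped by genotype label and treatment. The 6 TGF-β1 libraries stand apart in both panels, with Hk2 at 26.8% to 32.3% and Pfkl at 54.6% to 58.6%, and the BMP4 bars resemble the untreated ones.

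Enolase 1 and phosphoglycerate mutase 1, which catalyse neighbouring steps before pyruvate kinase, both rose. Eno1 (ENSMUSG00000063524, chromosome 4, 150236721 to 150248879) was 571, 546 and 636 CPM untreated and 949, 968 and 975 CPM with TGF-β1 in floxed-labelled libraries. The knockout-labelled libraries held 551, 542 and 555 CPM untreated and 893, 870 and 894 CPM with TGF-β1. No TGF-β1 library overlapped an untreated one, with changes of 1.65-fold (log2 0.72, SE 0.05, edgeR adjusted p = 2.86e-09) and 1.61-fold (log2 0.69, SE 0.05, edgeR adjusted p = 6.01e-09). Eno1 has a near-identical copy, Eno1b, which held a mean of 16.8 counts per library. Pgam1 rose by log2 0.47 and 0.50.

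Other abundant enzymes rose by small amounts that were still larger than the spread between libraries. Ldha, lactate dehydrogenase A, was 388, 368 and 396 CPM untreated and 471, 457 and 441 CPM with TGF-β1 in floxed-labelled libraries, and 333, 381 and 357 CPM against 408, 414 and 420 CPM in knockout-labelled ones. Neither pair of groups overlapped, and the rises were 1.19-fold (log2 0.25, SE 0.05, edgeR adjusted p = 0.000571) and 1.16-fold (log2 0.21, SE 0.05, edgeR adjusted p = 0.00221). Aldoa rose by log2 0.25 and 0.21. Tpi1, triose phosphate isomerase, was 289, 282 and 287 CPM untreated and 327, 323 and 305 CPM with TGF-β1 in floxed-labelled cells, and 243, 255 and 256 CPM against 288, 289 and 282 CPM in knockout-labelled cells, rises of log2 0.15 and 0.19. Tpi1 overlaps Spsb2 on the other strand, which held 18.7% of its count. The second Aldoa identifier, at 0.325 ± 0.135 CPM untreated, was called in floxed-labelled cells only (log2 1.29, SE 0.48, edgeR adjusted p = 0.0473). Leaving out any 1 of the 6 libraries of that comparison ended its call (edgeR adjusted p 0.0588 to 0.194). This identifier overlaps Fam57b on the other strand, which held 47.1% of its count, and is uncertain for that reason too.

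The landmarks of the pathway that did not pass the test were among its most abundant genes. Gapdh (ENSMUSG00000057666, chromosome 6, 125161715 to 125166467) was 1140, 1070 and 1160 CPM untreated and 1200, 1170 and 1180 CPM with TGF-β1 in floxed-labelled libraries, and 1050, 1100 and 1100 CPM against 1110, 1130 and 1100 CPM in knockout-labelled ones. These differences were 1.05-fold and 1.03-fold (edgeR adjusted p = 0.243 and 0.587), with 95% intervals of −0.02 to 0.17 and −0.06 to 0.14 on the log2 scale. Gapdh overlaps Iffo1 on the other strand, which held 5.07% of its count. Pgk1 (ENSMUSG00000062070, chromosome X, 106187100 to 106203699) was 482, 455 and 476 CPM untreated and 479, 481 and 456 CPM with TGF-β1 in floxed-labelled libraries, and 419, 444 and 424 CPM against 410, 413 and 410 CPM in knockout-labelled ones. The untreated and TGF-β1 values of Pgk1 overlapped in floxed-labelled cells and not in knockout-labelled cells, with log2 changes of 0.00 and −0.06 in the 2 genotypes. Pkm, which controls the exit of glycolysis (log2 −0.04 and −0.07), and Gpi1, glucose-6-phosphate isomerase (log2 0.06 and 0.00), were not called either. Aldoc, a further aldolase, fell in knockout-labelled cells (log2 −0.47, SE 0.11, edgeR adjusted p = 0.00309) and was at log2 −0.21 in floxed-labelled cells (edgeR adjusted p = 0.172, and 0.00368 with library number as a block).

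Of the 5 genes of transport and flux control, 3 rose and 1 fell in both genotypes (80.0% called, against 33.0% and 34.6% of all genes). Slc2a1 (ENSMUSG00000028645, chromosome 4, 119108711 to 119137983) encodes the glucose transporter GLUT1. Its levels were 31.5, 37.3 and 37.2 CPM untreated and 60.7, 70.4 and 57.4 CPM with TGF-β1 in floxed-labelled cells, and 30.7, 34.6 and 32.9 CPM against 57.3, 53.6 and 53.6 CPM in knockout-labelled cells. The groups did not overlap, and the rises were 1.78-fold (log2 0.83, SE 0.08, edgeR adjusted p = 1.03e-07) and 1.68-fold (log2 0.74, SE 0.08, edgeR adjusted p = 7.44e-07). Slc16a3, the lactate exporter MCT4, was 51.3, 54.0 and 57.9 CPM untreated and 79.1, 83.6 and 69.9 CPM with TGF-β1 in floxed-labelled cells. In knockout-labelled cells it was 44.5, 50.1 and 49.7 CPM against 71.2, 72.1 and 65.9 CPM. Both comparisons were free of overlap (1.43-fold and 1.45-fold, log2 0.51 and 0.54, SE 0.07 in each).

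Pfkfb3, the kinase that makes fructose-2,6-bisphosphate and so activates phosphofructokinase, varied more between libraries. It was 45.8, 66.1 and 48.3 CPM untreated and 87.3, 93.1 and 77.9 CPM with TGF-β1 in floxed-labelled cells, and 48.8, 39.3 and 54.5 CPM against 76.6, 63.1 and 78.9 CPM in knockout-labelled cells. Library 2 was the highest of its group in floxed-labelled cells and the lowest in knockout-labelled cells, with and without TGF-β1. No TGF-β1 library fell among the untreated ones of its genotype. The rises were 1.61-fold (log2 0.69, SE 0.14, edgeR adjusted p = 0.00082) and 1.53-fold (log2 0.62, SE 0.15, edgeR adjusted p = 0.00273). Pfkfb4, a related bifunctional enzyme, was at log2 −0.18 and −0.21 and was called lower only with library number as a block (edgeR adjusted p = 0.00996 and 0.00267, against 0.265 and 0.168 without it). The share of Pfkfb3 in the summed FPKM of the pair was 30.4% ± 3.24 untreated and 44.6% ± 3.72 with TGF-β1 in floxed-labelled cells, and 26.2% ± 1.30 and 39.0% ± 1.78 in knockout-labelled cells. Pdk1, which inhibits pyruvate dehydrogenase and is a textbook HIF-1 target, fell from 69.5 ± 4.52 to 51.9 ± 3.49 CPM (edgeR adjusted p = 0.000183, with a log2 change of −0.42 and SE 0.08) and from 72.3 ± 5.78 to 49.8 ± 3.40 CPM (edgeR adjusted p = 1.58e-05, with a log2 change of −0.54 and SE 0.08).

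**Figure D2:**
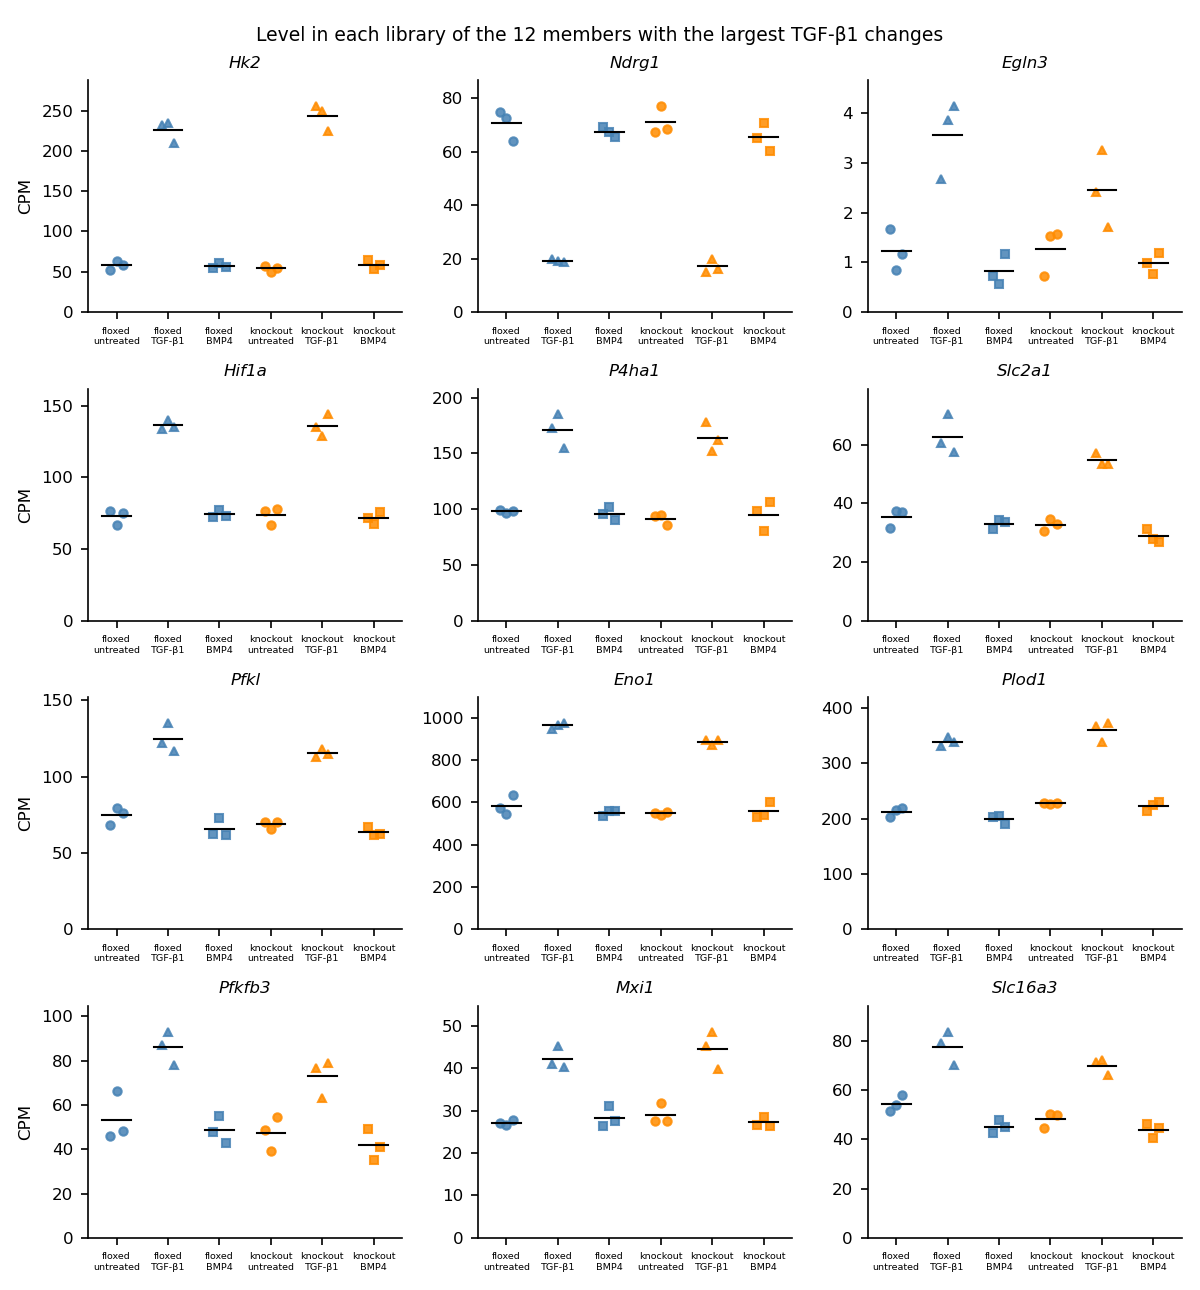
CPM (vertical axis, linear from 0) in each library for the 12 members with the largest mean absolute TGF-β1 change among those called in both genotypes; points are libraries, in the order 1 to 3, and lines are group means. In all 12 panels the TGF-β1 triangles of a genotype do not overlap its untreated circles, and only Ndrg1 goes down. The 12 were picked by their changes in these same comparisons, so the lack of overlap follows largely from that choice. The share of all genes without overlap is not given here. The gap is narrow for the scarce Egln3 in knockout-labelled cells (1.71 CPM against 1.57 CPM).

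The alpha subunit of HIF-1 and both hydroxylases among the members rose in both genotypes. All 3 were thus called, against 33.0% and 34.6% of all genes. Hif1a (ENSMUSG00000021109, chromosome 12, 73901375 to 73947530) was 76.6, 66.7 and 75.3 CPM untreated and 134, 140 and 135 CPM with TGF-β1 in floxed-labelled cells. The knockout-labelled values were 76.6, 66.6 and 78.3 CPM and 135, 129 and 144 CPM. No values overlapped between treatments, and the rises were 1.87-fold (log2 0.90, SE 0.07, edgeR adjusted p = 1.85e-09) and 1.84-fold (log2 0.88, SE 0.07, edgeR adjusted p = 3.34e-09). HIF-1 activity is known to be set mainly by the stability of this protein, which these data do not measure. Egln1, the main prolyl hydroxylase that marks HIF for degradation, rose from 25.5 ± 2.17 to 37.4 ± 2.96 CPM (edgeR adjusted p = 3.18e-05, with a log2 change of 0.55 and SE 0.08) and from 27.6 ± 3.09 to 37.4 ± 1.70 CPM (edgeR adjusted p = 0.000474, with a log2 change of 0.44 and SE 0.09).

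Egln3, a hydroxylase that is itself induced by HIF, was scarce and varied between libraries. It was 1.67, 0.849 and 1.17 CPM untreated and 2.67, 3.86 and 4.15 CPM with TGF-β1 in floxed-labelled cells, and 0.725, 1.53 and 1.57 CPM against 2.41, 3.27 and 1.71 CPM in knockout-labelled cells. The groups did not overlap, but knockout-labelled library 3 with TGF-β1 lay just above the highest untreated library. The change was 2.88-fold in floxed-labelled cells (log2 1.53, SE 0.32, edgeR adjusted p = 0.000788) and 1.93-fold in knockout-labelled cells (log2 0.95, SE 0.34, edgeR adjusted p = 0.0378). The knockout-labelled call ended without untreated library 1 (log2 0.68, edgeR adjusted p = 0.17), without TGF-β1 library 1 (0.97, edgeR adjusted p = 0.0645) or without TGF-β1 library 2 (0.69, edgeR adjusted p = 0.181). The genotype difference of this response was −0.58 on the log2 scale, with a 95% interval of −1.57 to 0.41.

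In a list of 8 other regulators of the HIF pathway, 6 were tested, of which 1 rose and 3 fell in each genotype. The share called was 66.7% in each, against 33.0% and 34.6% of all genes. Vhl, the von Hippel-Lindau subunit of the ligase that degrades HIF-α, was 27.5, 33.6 and 30.4 CPM untreated and 141, 150 and 133 CPM with TGF-β1 in floxed-labelled cells, and 29.5, 25.2 and 30.7 CPM against 141, 144 and 148 CPM in knockout-labelled cells. These rises were 4.63-fold (log2 2.21, SE 0.08, edgeR adjusted p = 7.03e-14) and 5.07-fold (log2 2.34, SE 0.08, edgeR adjusted p = 4.45e-14), and the floxed-labelled rise was 4.39-fold in the fit of 15 libraries. Cited2, which competes with HIF-1α for the coactivators CBP and p300, fell from 174 ± 20 to 71.7 ± 4.23 CPM (log2 −1.27, SE 0.09) and from 169 ± 20.4 to 62.7 ± 3.26 CPM (log2 −1.43, SE 0.09). Hif1an, the asparaginyl hydroxylase FIH that blocks coactivator binding, fell by 0.22 and 0.26 on the log2 scale. Egln2, another prolyl hydroxylase, fell by 0.16 and 0.17, and its floxed-labelled call ended in the fit of 15 libraries (edgeR adjusted p = 0.0988). Genes known to restrain HIF thus moved in both directions, with Vhl, Egln1 and Egln3 higher and Cited2, Hif1an and Egln2 lower.

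**Figure D3:**
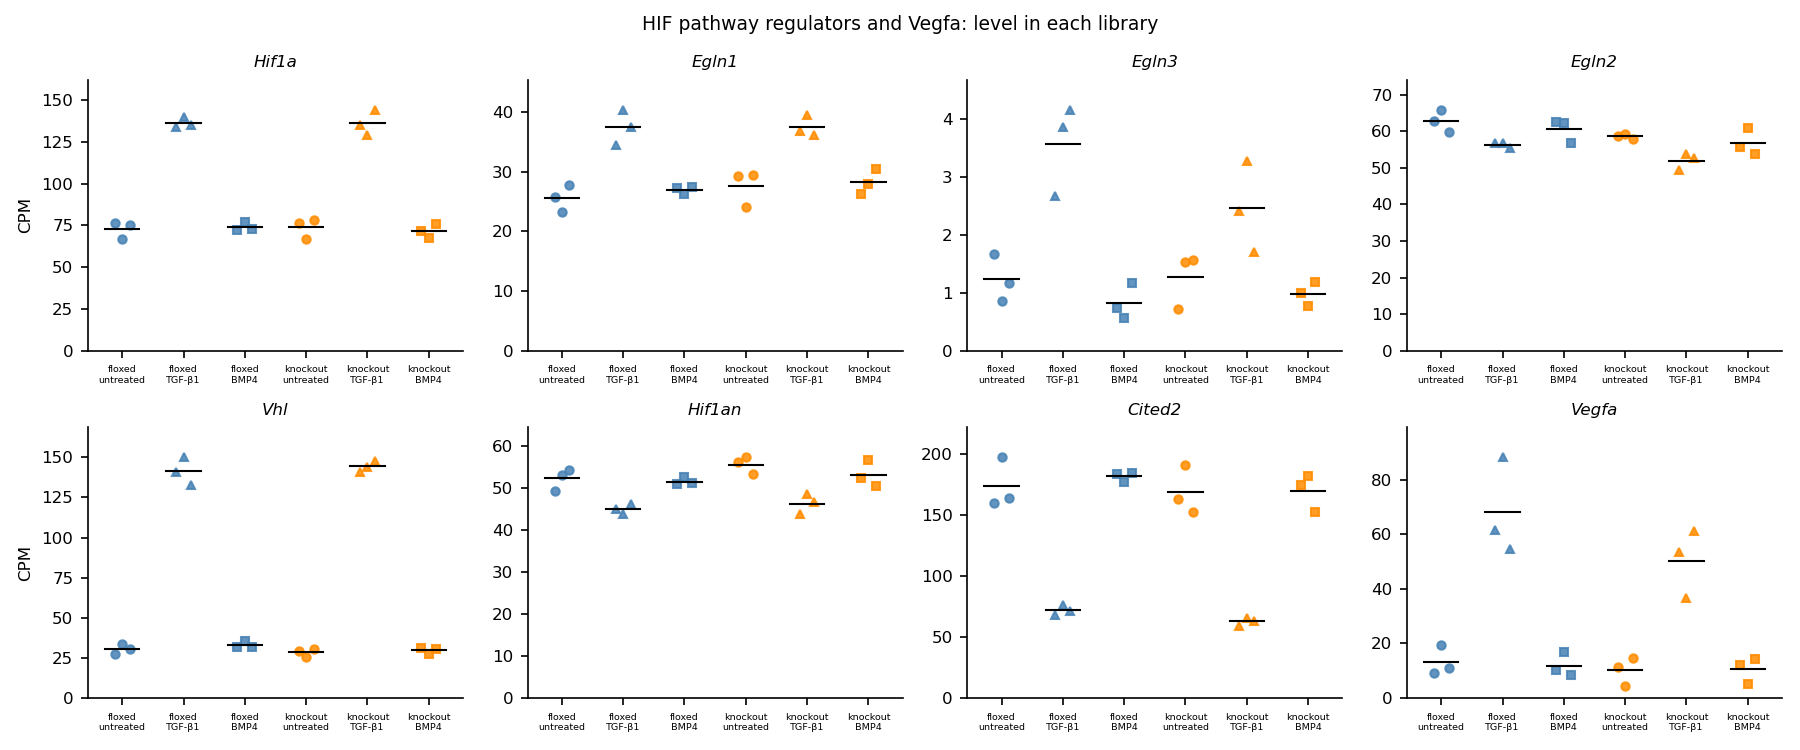
CPM (vertical axes, linear from 0) in each library for Hif1a, the 3 prolyl hydroxylases Egln1, Egln3 and Egln2, for Vhl, Hif1an and Cited2, and for the HIF target Vegfa; points are libraries in the order 1 to 3 and lines are group means. Vhl stands at 133 to 150 CPM in the 6 TGF-β1 libraries, and Cited2 drops to between 59.1 and 76.0 CPM in them. The BMP4 squares overlap the untreated circles of their genotype in every panel. For the scarce Egln3 in floxed-labelled cells they are at 0.735, 0.555 and 1.16 CPM, against 1.67, 0.849 and 1.17 CPM untreated.

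Among the 4 mitochondrial and mitophagy genes, 1 rose in floxed-labelled and 2 rose in knockout-labelled cells. Bnip3, a mitophagy receptor and HIF target, rose from 21.7 ± 0.648 to 32.1 ± 2.77 CPM (edgeR adjusted p = 5.81e-05, with a log2 change of 0.57 and SE 0.09) and from 21.7 ± 1.47 to 30.2 ± 4.73 CPM (edgeR adjusted p = 0.000507, with a log2 change of 0.48 and SE 0.09). Its relative Bnip3l rose in knockout-labelled cells (log2 0.23, SE 0.07, edgeR adjusted p = 0.016) and was at log2 0.16 in floxed-labelled cells (edgeR adjusted p = 0.0785, and 0.00598 with library number as a block). The knockout-labelled call of Bnip3l ended without untreated library 1 (edgeR adjusted p = 0.0679) or without TGF-β1 library 2 (edgeR adjusted p = 0.0759). Higd1a, a factor of the respiratory chain, and Ak4 were not called (log2 0.24 and 0.11, and 0.60 and 0.57). With the block, Ak4 was called in floxed-labelled cells (edgeR adjusted p = 0.0397).

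The collagen hydroxylases, which modify procollagen in the endoplasmic reticulum, split by gene: P4ha1 and Plod1 rose in both genotypes and P4ha2 and Plod2 did not. Of these 4 genes 50.0% were called in floxed-labelled and 75.0% in knockout-labelled cells, against 33.0% and 34.6% of all genes. P4ha1 (ENSMUSG00000019916, chromosome 10, 59323296 to 59373304), a catalytic subunit of prolyl 4-hydroxylase, was 99.4, 96.7 and 98.0 CPM untreated and 173, 185 and 155 CPM with TGF-β1 in floxed-labelled cells. In knockout-labelled cells it was 94.2, 95.0 and 85.7 CPM against 178, 152 and 162 CPM. The TGF-β1 libraries were all higher, by 1.75-fold (log2 0.81, SE 0.09, edgeR adjusted p = 3.27e-07) and 1.79-fold (log2 0.84, SE 0.09, edgeR adjusted p = 2.19e-07). Plod1, which hydroxylates lysines of collagen, was 203, 216 and 219 CPM untreated and 332, 347 and 338 CPM with TGF-β1 in floxed-labelled cells, and 229, 226 and 228 CPM against 367, 339 and 373 CPM in knockout-labelled cells. Here too no values overlapped (1.59-fold and 1.58-fold, log2 0.67 and 0.66, SE 0.05 in each). P4ha2 fell in knockout-labelled cells (log2 −0.70, SE 0.20, edgeR adjusted p = 0.0114) and was at −0.47 in floxed-labelled cells (edgeR adjusted p = 0.0632, and 0.0318 with the block). The knockout-labelled call of P4ha2 ended without untreated library 3 (edgeR adjusted p = 0.0806) or without TGF-β1 library 2 (edgeR adjusted p = 0.0663). P4ha1 held 97.3% ± 0.393 of the summed FPKM of P4ha1 and P4ha2 in untreated floxed-labelled cells and 98.9% ± 0.158 with TGF-β1. Plod2, at most 1.10 CPM in any library, was not called (log2 0.36 and 0.63, SE 0.42 and 0.46).

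Of the 5 other HIF targets tested, Mxi1 and Kdm3a rose and Ndrg1 fell in both genotypes. The share called was 60.0%, against 33.0% and 34.6% of all genes. Ndrg1 (ENSMUSG00000005125, chromosome 15, 66929318 to 66969640), a cytosolic stress protein often used as a hypoxia marker, was 74.9, 72.7 and 64.2 CPM untreated and 19.8, 19.2 and 18.8 CPM with TGF-β1 in floxed-labelled cells. The knockout-labelled libraries held 67.5, 77.2 and 68.6 CPM untreated and 15.0, 20 and 16.2 CPM with TGF-β1. The highest TGF-β1 library, at 20 CPM, lay far below the lowest untreated one, at 64.2 CPM. The fall was 3.67-fold (log2 −1.88, SE 0.09, edgeR adjusted p = 3.29e-12) and 4.15-fold (log2 −2.05, SE 0.09, edgeR adjusted p = 1.4e-12). Mxi1, a MAX partner that opposes MYC, was 27.0, 26.5 and 27.9 CPM untreated and 41.0, 45.2 and 40.3 CPM with TGF-β1 in floxed-labelled cells, and 27.6, 31.8 and 27.5 CPM against 45.2, 48.6 and 39.9 CPM in knockout-labelled cells. Its groups did not overlap (1.56-fold and 1.54-fold, log2 0.64 and 0.62, SE 0.08 in each).

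Kdm3a, a histone H3 lysine 9 demethylase, rose by log2 0.23 (SE 0.07, edgeR adjusted p = 0.0195) in floxed-labelled and 0.27 (SE 0.07, edgeR adjusted p = 0.00627) in knockout-labelled cells. The floxed-labelled call of Kdm3a ended without untreated library 1 (edgeR adjusted p = 0.0816), without TGF-β1 library 1 (edgeR adjusted p = 0.108) or without TGF-β1 library 2 (edgeR adjusted p = 0.0524). Ddit4, an inhibitor of mTORC1 (log2 −0.32 and −0.05), and Ankrd37 (log2 0.22 and 0.44) were not called. Ankrd37, at 1.40 ± 0.229 CPM in untreated floxed-labelled cells, overlaps the far more abundant Ufsp2 on the other strand.

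Members of both classes rose with TGF-β1. In the glycolysis class 12 of 21 rose and 2 fell in floxed-labelled cells (median log2 0.24), and 11 rose and 3 fell in knockout-labelled cells (median 0.21). In the HIF class 8 of 16 rose and 1 fell (median 0.46), and 9 rose and 2 fell (median 0.46). Thus 66.7% of the glycolysis class was called in each genotype, and 56.2% and 68.8% of the HIF class. Over all genes tested 33.0% and 34.6% were called, with a median log2 change of 0.0 in both. The HIF class also spanned the wider range, from −1.88 to 1.53 and from −2.05 to 0.95, against −0.42 to 1.96 and −0.54 to 2.17 in the glycolysis class. Its lower end was set by Ndrg1 alone, and the next lowest member, P4ha2, was at −0.47 and −0.7. Over the alternative analyses the HIF class median ranged from 0.20 to 0.58 in floxed-labelled cells and from 0.24 to 0.61 in knockout-labelled cells, and the glycolysis class median from 0.19 to 0.26 and from 0.18 to 0.24. These ranges overlap in floxed-labelled cells and meet in knockout-labelled cells, and the difference between the classes was not tested. Without the floxed-labelled libraries numbered 1, the floxed-labelled medians were 0.22 for the glycolysis class and 0.44 for the HIF class.

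**Figure D4:**
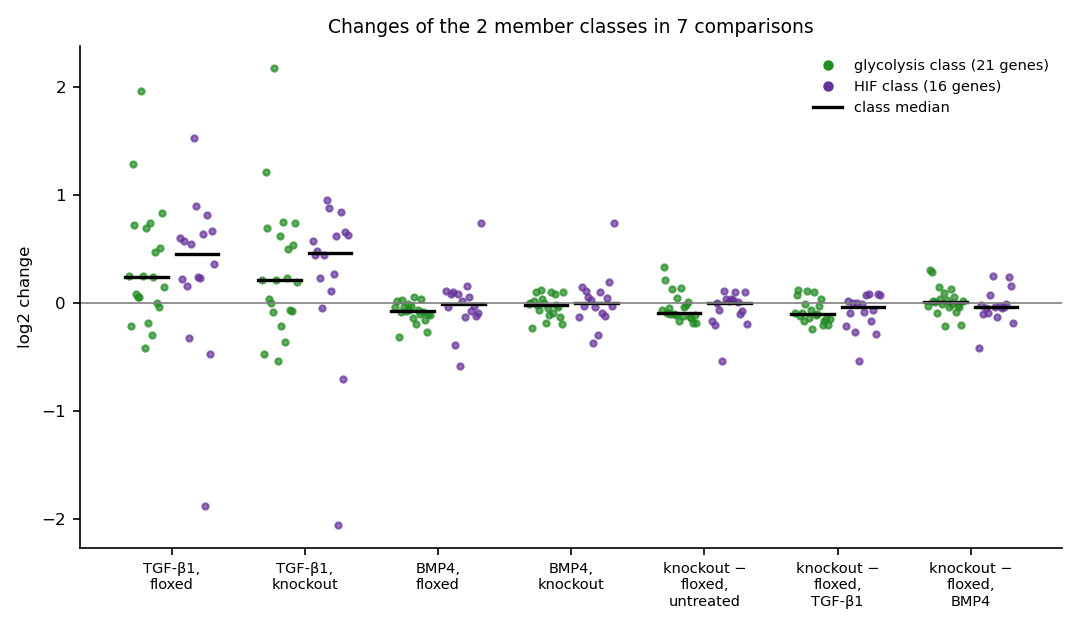
Log2 change (vertical axis) of each tested identifier of the glycolysis class (green) and the HIF class (purple) in the 4 treatment comparisons and the 3 comparisons of genotype labels; black lines are class medians. Both classes lie mostly above 0 with TGF-β1, with medians of 0.24 and 0.46 in floxed-labelled cells. In the other 5 comparisons the class medians run from −0.1 to 0.01. The glycolysis class lies mostly below 0 in 3 of them: BMP4 in floxed-labelled cells (4 of 21 above 0) and the label comparisons untreated (6 of 21) and with TGF-β1 (5 of 21). The HIF class lies mostly below 0 in the label comparisons with TGF-β1 (5 of 16 above 0) and with BMP4 (4 of 16). Over all genes 7332 to 7484 of 14684 lay above 0 in these comparisons. The floxed-labelled BMP4 comparison and the untreated label comparison share the untreated floxed-labelled libraries.

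Further HIF targets outside the members also moved both ways with TGF-β1. Of 24 tested from a list of 27, 7 rose and 5 fell in floxed-labelled cells and 7 rose and 4 fell in knockout-labelled cells. These are 50.0% and 45.8% called, against 33.0% and 34.6% of all genes. Vegfa, the angiogenic growth factor, was 9.29, 19.5 and 11.0 CPM untreated and 61.5, 88.3 and 54.6 CPM with TGF-β1 in floxed-labelled cells, and 11.5, 4.21 and 14.7 CPM against 53.4, 36.5 and 61.1 CPM in knockout-labelled cells. These groups did not overlap (log2 2.36, SE 0.36, edgeR adjusted p = 3.04e-05, and log2 2.31, SE 0.38, edgeR adjusted p = 7.86e-05). The chemokine receptor Cxcr4 rose by log2 2.36 and 2.28, and the transcriptional repressor Bhlhe40 by 3.01 and 3.18. Tfrc, the transferrin receptor, fell by 1.07 and 1.08 on the log2 scale, Gbe1, the glycogen branching enzyme, by 0.50 and 0.59, and Hmox1, heme oxygenase, by 0.30 and 0.26. In the fit of 15 libraries the floxed-labelled calls of Gbe1 (edgeR adjusted p = 0.0546) and Hmox1 (edgeR adjusted p = 0.0655) ended, and the floxed-labelled rise of Vegfa was log2 2.22.

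The neighbouring pathways of carbon metabolism held calls in both directions. In the list of other glycolysis, gluconeogenesis and pyruvate genes, 4 of 23 tested rose and 3 fell in floxed-labelled cells (30.4% called), and 3 rose and 7 fell in knockout-labelled cells (43.5%), against 33.0% and 34.6% of all genes called. Ldhb, the lactate dehydrogenase B subunit, rose from 13.6 ± 2.58 to 46.7 ± 5.65 CPM (edgeR adjusted p = 4.63e-10, with a log2 change of 1.77 and SE 0.12) and from 12.9 ± 1.40 to 49.5 ± 1.73 CPM (edgeR adjusted p = 2.09e-10, with a log2 change of 1.94 and SE 0.12). Tigar, a fructose-2,6-bisphosphatase with the reaction opposite to that of Pfkfb3, rose by log2 0.66 and 0.95. Slc16a7, a monocarboxylate transporter, fell by 1.09 and 1.02 on the log2 scale. In the pentose phosphate pathway, 0 of 7 rose and 1 fell in floxed-labelled cells (14.3% called), and 1 rose and 2 fell in knockout-labelled cells (42.9%). G6pdx, the enzyme of its first step, fell by 0.48 and 0.50. In the citric acid cycle, 2 of 17 rose and 3 fell (29.4% called), and 2 rose and 4 fell (35.3%), among them Sdhb, a succinate dehydrogenase subunit (log2 0.38 and 0.42), and Fh1, fumarase (log2 −0.39 and −0.34).

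Of the 7 macrophage markers, 1 rose and 1 fell with TGF-β1 in each genotype and 5 were not called (28.6% called, against 33.0% and 34.6% of all genes). Mertk rose (log2 0.47 and 0.51) and Cd14 fell (log2 −1.10 and −1.23), while the 7 markers summed to 10400 to 11700 CPM untreated and 10100 to 11000 CPM with TGF-β1 in floxed-labelled cells, and to 10500 to 11000 CPM against 10200 to 10600 CPM in knockout-labelled cells. The 4 dendritic cell markers, each under 1 CPM on average, summed to 1.24 to 1.98 CPM untreated and 2.04 to 3.06 CPM with TGF-β1 in floxed-labelled cells, and to 0.976 to 1.95 CPM against 1.80 to 3.67 CPM in knockout-labelled cells. Neutrophil markers summed to 97.2 to 143 CPM against 115 to 164 CPM, and to 79.1 to 112 CPM against 79.0 to 134 CPM. The part of these markers in the member results was not tested.

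With BMP4, no member passed the test in either genotype. None of the 37 was called in floxed-labelled cells, where edgeR called 0.0% of all genes (1103 genes and 5 members had an unadjusted p under 0.05), or in knockout-labelled cells, where it called 0.572% of all genes (4 members had an unadjusted p under 0.05). The count of members stayed at 0 under every alternative run, DESeq2 and the block included. Hk2 was 54.3, 61.4 and 56.4 CPM with BMP4 in floxed-labelled cells and 64.2, 53.2 and 58.7 CPM in knockout-labelled cells, among the untreated values in the former and overlapping them in the latter. Its log2 changes were −0.01 (95% interval −0.19 to 0.16) and 0.12 (−0.06 to 0.30). Ndrg1 was 69.4, 67.3 and 65.4 CPM and 65.0, 70.8 and 60.3 CPM (log2 −0.07 and −0.12), and Hif1a was 72.2, 77.1 and 73.1 CPM and 71.8, 67.7 and 76.0 CPM (log2 0.02 and −0.04). The members' log2 changes ran from −0.58 to 0.74 and from −0.37 to 0.74, with the scarce Plod2 at 0.74 in both (SE 0.41 and 0.44), and the floxed-labelled changes from −0.69 to 0.41 in the fit of 15 libraries. None of the genes of the 5 neighbouring lists was called with BMP4 in either genotype. The BMP4 and TGF-β1 comparisons of a genotype share their untreated libraries.

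Between the genotype labels, 1 member was called in untreated cells, 1 with TGF-β1 and 0 with BMP4. An unadjusted edgeR p under 0.05 was held by 7 members (2577 genes) untreated, 8 members (1837 genes) with TGF-β1 and 4 members (1161 genes) with BMP4. The 8 members with TGF-β1 were all of the glycolysis class. Median log2 differences in these comparisons were −0.09, −0.1 and 0.01 in the glycolysis class and 0.01, −0.03 and −0.04 in the HIF class, and were not tested. Untreated, 2.39% of all genes were called (1.1% lower), and Tpi1 was lower in knockout-labelled cells, at 243, 255 and 256 CPM against 289, 282 and 287 CPM in floxed-labelled cells with no overlap (log2 −0.18, SE 0.04, edgeR adjusted p = 0.0265). The call ended without floxed-labelled library 1 (edgeR adjusted p = 0.077) or 3 (0.0553), without knockout-labelled library 1 (0.123) or 3 (0.0742), and without all floxed-labelled libraries numbered 1 (log2 −0.18, edgeR adjusted p = 0.103). With TGF-β1, 0.388% of all genes were called (0.252% lower), and Pgk1 was lower, at 410, 413 and 410 CPM against 479, 481 and 456 CPM (edgeR adjusted p = 0.0448, with a log2 change of −0.20 and SE 0.04). Leaving out any 1 of the 6 libraries ended this call (log2 −0.22 to −0.18, edgeR adjusted p 0.0789 to 0.207), as did leaving out the floxed-labelled libraries numbered 1 (log2 −0.19, edgeR adjusted p = 0.163). With BMP4, where 0.0272% of all genes were called, the knockout-labelled values of Tpi1 were 266, 267 and 274 CPM against 270, 260 and 265 CPM, and those of Pgk1 were 416, 428 and 424 CPM against 463, 432 and 443 CPM. Tpi1 overlapped between labels with BMP4 and Pgk1 did not, and neither was called (log2 0.02 and −0.08).

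The TGF-β1 response of the members was compared between the genotype labels directly. No member was called for a difference of the TGF-β1 response, in which 0.00681% of all genes were called and 493 genes and 0 members had an unadjusted p under 0.05. The difference (knockout-labelled minus floxed-labelled response) was 0.20 for Hk2 on the log2 scale (95% interval −0.04 to 0.45), −0.02 for Hif1a (−0.22 to 0.17), 0.04 for P4ha1 (−0.22 to 0.29), −0.09 for Slc2a1 (−0.33 to 0.16) and −0.18 for Ndrg1 (−0.45 to 0.09). Over the 37 members it ran from −0.58 to 0.27 with a median of −0.03. In the fit of 15 libraries it was 0.31 for Hk2 and −0.20 for Ndrg1, ran from −1.03 (Egln3) to 0.66 (Plod2) over the members, and 0 members were called. These intervals allow differences of the size of the smaller TGF-β1 changes and do not show that the genotypes responded alike. For the BMP4 response no member and 0.0% of all genes were called (839 genes and 1 member, Tpi1, had an unadjusted p under 0.05), and the members' differences ran from −0.25 to 0.45. For the genes that the neighbouring lists hold, 0 were called in any comparison of the labels or of their responses.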

How the data were processed

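The authors deposited 3 tables of 54532 genes each, per the file headers: read counts per library, FPKM per library, and a description table from which the gene length was taken. Per the submitters' processing notes, reads were aligned to mm10 (GRCm38.p6) with TopHat2 2.0.9, and HTSeq 0.6.1 and Cufflinks 2.1.1 were used; the strand setting and the annotation release are not given in the sources used here. A further 78 per-sample columns of the description table were not used. Deposited FPKM values served for levels per length, isoform shares and the limma alternatives.

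Counts were analysed as deposited in R 4.3.3 with edgeR 4.0.16: filterByExpr (14684 genes), TMM scaling (factors 0.978 to 1.02) and quasi-likelihood F tests (two-sided) in 1 model of the 6 group means, with all 18 libraries, 12 residual degrees of freedom, 6.41 prior ones and a biological coefficient of variation of 8.86%. Adjusted p is Benjamini-Hochberg over all genes tested, with calls under 0.05. Errors are SD over 3 libraries or SE of a log2 change. In 15153296 to 24639163 counts per library, precision at low CPM is limited by counting.

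Library numbers were checked as pairs: same-numbered libraries of a genotype deviated together (correlations of deviations from group means 0.215 to 0.416 in floxed-labelled and 0.186 to 0.532 in knockout-labelled cells), and across genotypes they ran from −0.195 to 0.124, so numbers were taken as pairs within a genotype only. Alternatives were RLE or total count scaling, other filters, DESeq2 1.42.0, limma 3.58.1 on log2(FPKM + 1) and log2(FPKM + 0.1), blocks for library number, a fit of the groups compared alone, 15 libraries, and each library left out.

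The members, lists and alternatives were chosen with earlier results of these data known. Values in every library are given for the 12 members called in both TGF-β1 comparisons with the largest mean absolute log2 change, for members called in another comparison, and for Slc2a1, Gapdh, Ldha and Hif1a; of each neighbouring list, up to 4 called genes per direction could be named. Promoters came from RefSeq (GRCm38.p6). The values of 1 gene on the list of further HIF targets are not reported here, and the counts over that list include it.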

Additional observations from a re-analysis of the deposited data

How the results depend on the processing

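Of 50 member results called in a comparison, 41 kept their direction and their call under every alternative run for them, and over 847 values 45 lost the call and 0 reversed. Those that lost it at least once were Bnip3l, Egln3 and P4ha2 in knockout-labelled cells and Kdm3a, Pfkp, Tpi1 and the second Aldoa identifier in floxed-labelled cells with TGF-β1, and Tpi1 and Pgk1 between labels. With the replicate block within genotype, the members that fell with TGF-β1 in floxed-labelled cells numbered 6 in place of 3, and no member was called with BMP4 or for a difference of responses. Over all genes that block called 16 higher and 37 lower with BMP4 in floxed-labelled cells against 0 and 0 without it, and 167 higher and 305 lower against 19 and 65 in knockout-labelled cells. Between labels in untreated cells, 1 member was called higher with no low-count filter (Aldoc; 0 in the main analysis), and the members called lower (1 in the main analysis) were 2 with no low-count filter, 2 with DESeq2, 0 with 15 libraries, 0 with only the groups compared, and 0 to 2 with each library left out in turn. With TGF-β1, the members called lower between labels (1 in the main analysis) were 2 with DESeq2 and 0 with RLE size factors, no low-count filter, limma on log2(FPKM + 1), limma on log2(FPKM + 0.1), 15 libraries or only the groups compared, and 0 to 0 with each library left out. With BMP4, 1 member was called higher between labels with no low-count filter (Aldoc, 0 in the main analysis). The cause of these changes was not tested. A block within genotype cannot be had for comparisons between genotypes. Counts of a few CPM or less, as for Egln3, Ak4, Plod2, Ankrd37 and the second Aldoa identifier, limit what could be detected at this depth.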
